A study of Saccharomyces cerevisiae with 4 samples.

Results

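The genes described here are 60 genes of Saccharomyces cerevisiae that encode factors which assemble ribosomes. They were taken by name as a fixed list of ORFs (open reading frames), and every probe whose annotation named one of them, and which the authors had not marked for exclusion, was used. This gave 525 probes, of which 425 lay inside an ORF, 86 upstream and 14 downstream. All 60 genes had an ORF value, among 5016 genes that had one on the arrays, and 50 had an upstream value, among 4744 genes. An ORF value needed at least 2 probes, and the genes had between 2 and 26 (median 6). An upstream value needed 1 probe, and 35 of the 50 rested on a single one.

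Ribosomes are made in the nucleolus, where RNA polymerase I transcribes the ribosomal RNA precursor. Assembly factors bind this precursor as it is made, guide its folding, modification and cleavage, and pass the subunits on for export through nuclear pores. Most of these factors are essential and abundant in growing yeast, and their genes are known to be regulated together. By the products' roles, the 60 genes were placed in 7 groups: snoRNP core proteins, the UTP-A complex, the UTP-B complex, other factors of the small subunit, DEAD-box helicases, GTPases and export factors of the large subunit, and other factors of the large subunit.

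The study mapped the chromatin contacts of 2 paralogous scaffold proteins of the nuclear pore, Nup157 and Nup170, by ChIP-chip, in which immunoprecipitated DNA and whole cell extract DNA are hybridised to one genome-tiling array. There were 4 libraries, 1 per group: Nup157-9xMyc in a strain labelled wild type, Nup170-9xMyc in a strain labelled sir4∆::natR, Nup170-9xMyc in a strain labelled yku70∆::natR, and Nup170-9xMyc in a strain labelled wild type. SIR4 encodes a silencing protein of telomeric chromatin, and the product of YKU70 is part of the Ku heterodimer found at chromosome ends. Per the labels all 4 strains were MATa with his3∆1, leu2∆0, ura3∆0 and lys2∆0, carried the tagged gene with a hphR marker, and grew in YPD at 30 °C. A value is log2 of ChIP over whole cell extract signal, centred on the median probe and averaged over the 2 hybridisations of a library, and a gene value is the mean over its probes.

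Nothing in the labels says that the 2 hybridisations came from separate cultures, so each group was 1 sample, no test between groups was possible, and the spread between cultures is unknown. No untagged strain was used here. Over the 60 ORF values the 2 hybridisations of a library correlated with r of 0.69 for Nup157, 0.69 for the sir4∆-labelled library, 0.81 for the yku70∆-labelled library and 0.73 for Nup170 in wild type, as a description across genes that share arrays. The values of all probes spread more widely for Nup157 (lower-side SD 0.50) than for the Nup170 libraries (0.19 labelled sir4∆, 0.18 labelled yku70∆ and 0.22 in wild type). The extract DNA went against some labels. Probes of SIR4 had 74.1% of the median probe's signal in the library labelled sir4∆, and probes of YKU70 had 108% in the library labelled yku70∆, so neither was lost. LYS2 was at the level of blank spots in the Nup157 strain on 16 of 16 probes and on 0 in the 3 Nup170 strains, so that the Nup157 and Nup170 strains differed in more than the tag.

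Nup170 gave small positive ratios over most of the ORFs. The median ORF value of the 60 genes was 0.092 in the library labelled sir4∆ (95% order-statistic interval over genes 0.059 to 0.12), 0.10 in the library labelled yku70∆ (0.079 to 0.13) and 0.12 in wild type (0.083 to 0.16). The medians over all genes were -0.0014, 0.0071 and 0.0044 in the same libraries. Of the 60 genes, 55 lay above 0 in the library labelled sir4∆, where 49.5% of all genes did. In the library labelled yku70∆ 55 did, against 52.7% of all genes, and in wild type 50 did, against 51.4%. Across libraries, 48 of the 60 (80.0%) were above 0 in all 3 Nup170 libraries, against 33.4% of all genes, and 38 (63.3%) were above 0 in all 6 hybridisations, against 21.5%. These intervals and counts cover the spread between genes only.

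The size of the ratio set the genes apart from each other more than its sign did. At a ratio of 0.2 or more, 14 members passed in the library labelled sir4∆ (7.6% of all genes), 11 in the library labelled yku70∆ (10.2%) and 15 in wild type (11.6%). The same 8 genes passed in all 3 Nup170 libraries, which is 13.3% of the 60 against 6.02% of all genes: NOP1, DBP2, NSR1, CBF5, NOG2, NOG1, NOP58 and NOP56. Without these 8 the medians of the other 52 were 0.079 in the library labelled sir4∆, 0.088 in the library labelled yku70∆ and 0.092 in wild type. NOP14 alone was below 0 in all 3, where 30.5% of all genes were. Over the 60 genes the ORF values correlated with r of 0.83 to 0.87 between Nup170 libraries, and with r of 0.39 to 0.50 between Nup157 and each of them, on shared probes and with no p. By ranks these were 0.66 to 0.79 and 0.25 to 0.36. Over all genes r was similar, at 0.87 to 0.91 and 0.37 to 0.48.

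**Figure D1:**
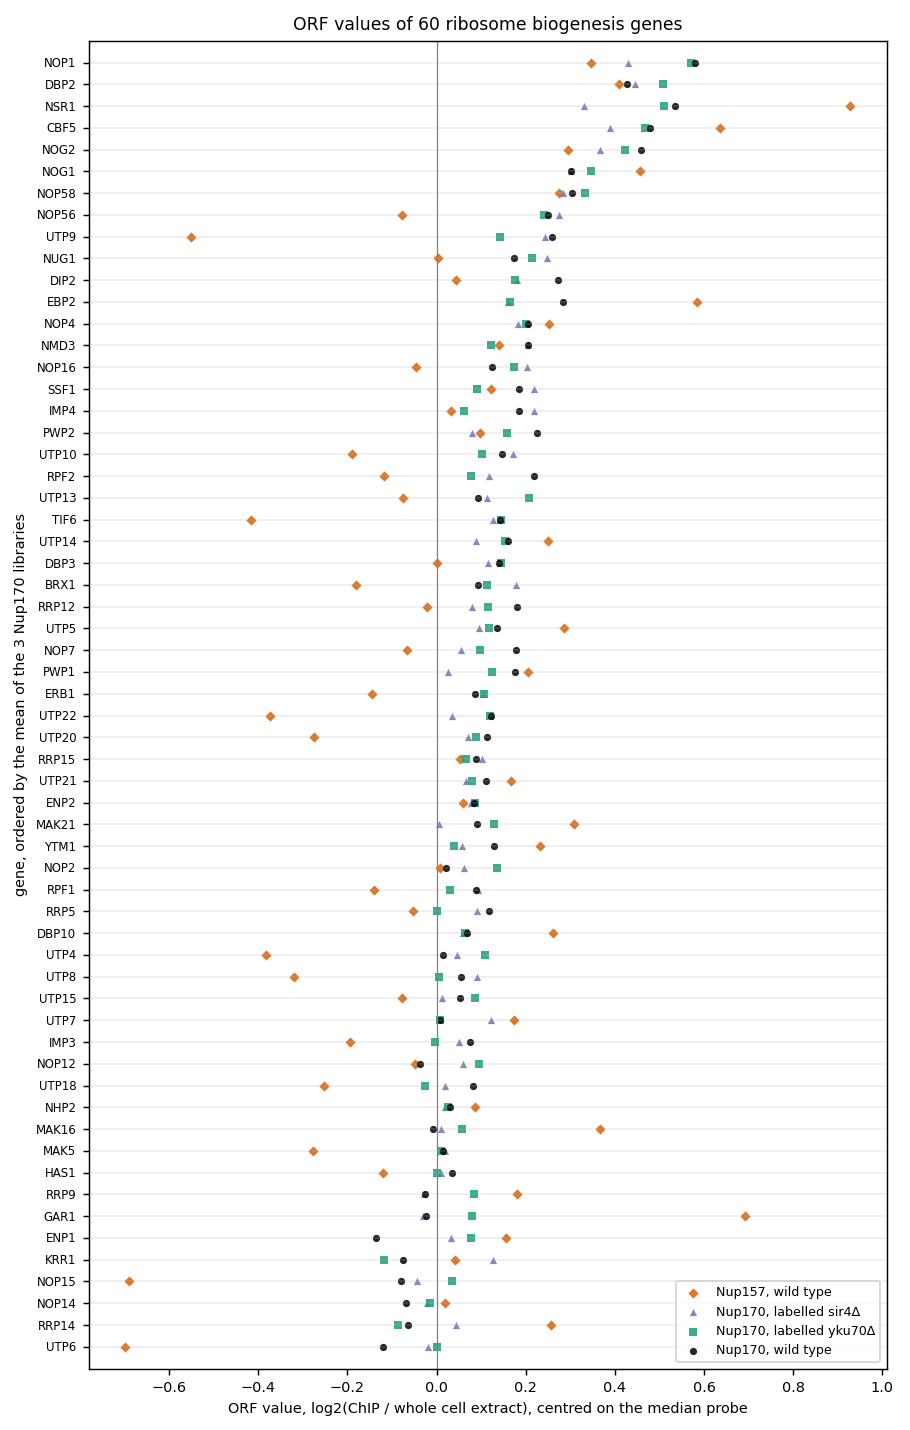
ORF values of the 60 genes (x axis, log2 of ChIP over whole cell extract, centred on the median probe), ordered down the page by the mean of the 3 Nup170 libraries. Each point is 1 library: the 3 Nup170 libraries lie close together, from NOP1 at the top to UTP6 at the bottom, while Nup157 scatters from -0.70 to 0.93.

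Genes of the snoRNP core had the highest group medians. These proteins bind small nucleolar RNAs, which guide modification of ribosomal RNA, and the group median of 6 genes was 0.28 in the library labelled sir4∆, 0.29 in the library labelled yku70∆ and 0.28 in wild type. NOP1 (YDL014W, chromosome 4, ORF probes from 427697 to 428312), for the methyltransferase fibrillarin of box C/D snoRNPs, had 0.35 for Nup157, and with Nup170 it had 0.43 in the library labelled sir4∆, 0.57 in the library labelled yku70∆ and 0.58 in wild type. Its place in the mean of the Nup170 libraries was 109 of all genes, the highest of the 60. Its hybridisations gave 0.36 and 0.50, 0.51 and 0.64, and 0.70 and 0.46 in those Nup170 libraries, so the differences between libraries were no larger than those between hybridisations of 1 library.

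The other box C/D genes were positive with Nup170 too. NOP58 (YOR310C, chromosome 15, 896922 to 898368) had 0.28 for Nup157, and with Nup170 it had 0.28 in the library labelled sir4∆, 0.33 in the library labelled yku70∆ and 0.30 in wild type. NOP56 (YLR197W, chromosome 12, 546088 to 547357), its paralogue in the same particle, had -0.078 for Nup157, but 0.27, 0.24 and 0.25 in those 3 Nup170 libraries. All 3 genes encode partners in one particle and all 3 passed 0.2 in every Nup170 library.

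The box H/ACA genes differed among themselves. CBF5 (YLR175W, chromosome 12, 506375 to 507341), for the pseudouridine synthase, had 0.64 for Nup157, and with Nup170 it had 0.39 in the library labelled sir4∆, 0.47 in the library labelled yku70∆ and 0.48 in wild type. GAR1 (YHR089C, chromosome 8, 282861 to 283199), a small core protein, had 0.69 for Nup157, but -0.030, 0.079 and -0.023 with Nup170 in the same order of libraries. NHP2 (YDL208W), another core protein, had 0.087 for Nup157 and 0.018, 0.026 and 0.030 with Nup170. GAR1 and NHP2 rested on 2 ORF probes each.

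Large subunit GTPases and export factors came next, with medians over 5 genes of 0.25 in the library labelled sir4∆, 0.21 in the library labelled yku70∆ and 0.21 in wild type, and all 5 genes were above 0 in each. NOG2 (YNR053C, chromosome 14, 721248 to 722990), a GTPase of late nuclear large subunit precursors, had 0.37 in the library labelled sir4∆, 0.42 in the library labelled yku70∆ and 0.46 in wild type. Its gene also holds the snoRNA gene SNR191, per the RefSeq table. NOG1 (YPL093W, chromosome 16, 371289 to 372893), another such GTPase, had 0.30, 0.35 and 0.30 in those libraries. NUG1 (YER006W), a related GTPase, had 0.25, 0.21 and 0.17, and NMD3 (YHR170W), the export adaptor of the large subunit, 0.20, 0.12 and 0.21. TIF6 (YPR016C), which keeps the subunits apart until maturation ends, had 0.13, 0.14 and 0.14.

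Among DEAD-box RNA helicases, 1 of 5 genes stood far above the rest. DBP2 (YNL112W, chromosome 14, 413928 to 416306), whose helicase also acts on messenger RNA, had 0.45 in the library labelled sir4∆, 0.51 in the library labelled yku70∆ and 0.43 in wild type, on 11 ORF probes. The other 4 helicase genes reached 0.15 at most with Nup170. DBP3 (YGL078C), of the large subunit pathway, had 0.12, 0.15 and 0.14. DBP10 (YDL031W), also of that pathway, had 0.060, 0.065 and 0.068. HAS1 (YMR290C), which acts on both subunits, and MAK5 (YBR142W), of the large subunit pathway, lay between 0.00037 and 0.034 in every Nup170 library. The 11 probes of DBP2 were all positive with Nup170, with an SD between probes of 0.20 labelled sir4∆, 0.13 labelled yku70∆ and 0.19 in wild type.

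Genes of the small subunit processome, the large particle that processes the small subunit's RNA, were mostly low and positive. The UTP-A complex binds the precursor first, and its 6 genes were above 0 in all 3 Nup170 libraries, with medians of 0.094 labelled sir4∆, 0.11 labelled yku70∆ and 0.095 in wild type. UTP9 (YHR196W, chromosome 8, 492167 to 493634) was the highest, at 0.24 labelled sir4∆, 0.14 labelled yku70∆ and 0.26 in wild type. UTP10 (YJL109C) had 0.17, 0.10 and 0.15, and UTP15 (YMR093W) 0.012, 0.085 and 0.053. UTP4, UTP5 and UTP8 lay between 0.0053 and 0.14.

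The UTP-B complex joins after it, and 5 of its 6 genes were above 0 in each Nup170 library. DIP2 (YLR129W) had 0.18 labelled sir4∆, 0.18 labelled yku70∆ and 0.27 in wild type, where its hybridisations gave 0.31 and 0.24. PWP2 (YCR057C) had 0.080 labelled sir4∆, 0.16 labelled yku70∆ and 0.22 in wild type, and UTP13 (YLR222C) 0.11, 0.21 and 0.093. UTP18 and UTP21 lay between -0.027 and 0.11. UTP6 (YDR449C, chromosome 4, 1357639 to 1358687) had the lowest mean of the 60 genes with Nup170: -0.019 labelled sir4∆, 0.00034 labelled yku70∆ and -0.12 in wild type.

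Of the 14 other small subunit genes, NSR1 was far above the rest. NSR1 (YGR159C, chromosome 7, 806413 to 807472), for the nucleolin-like RNA-binding protein, had 0.93 for Nup157, and with Nup170 it had 0.33 labelled sir4∆, 0.51 labelled yku70∆ and 0.53 in wild type. IMP4 (YNL075W), which helps the U3 RNA pair with the precursor, had 0.22, 0.063 and 0.19 with Nup170, and RRP12 (YPL012W), an export factor, 0.080, 0.11 and 0.18. The low end held NOP14 (YDL148C) at -0.021, -0.014 and -0.068, KRR1 (YCL059C) at 0.13, -0.12 and -0.075, ENP1 (YBR247C) at 0.033, 0.078 and -0.14, and RRP9 (YPR137W), a U3 snoRNP protein, at -0.029, 0.085 and -0.025. The last 3 of these changed sign between libraries, so their direction was not settled. UTP7, UTP14, UTP20, UTP22, IMP3, ENP2 and RRP5 lay between -0.0044 and 0.16.

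The 18 other large subunit genes had medians of 0.077 labelled sir4∆, 0.097 labelled yku70∆ and 0.092 in wild type, and 17, 17 and 14 of them were above 0. EBP2 (YKL172W, chromosome 11, 126137 to 127051) had 0.16, 0.16 and 0.28 in these libraries, and NOP4 (YPL043W), an RNA-binding protein of the large subunit pathway, 0.18, 0.20 and 0.20. The genes for the 3 proteins of the Nop7-Erb1-Ytm1 complex were positive and below 0.2: NOP7 (YGR103W) 0.055, 0.097 and 0.18, ERB1 (YMR049C) 0.10, 0.11 and 0.087, and YTM1 (YOR272W) 0.057, 0.039 and 0.13. BRX1, RPF1, RPF2 and SSF1, whose products share the Brix domain, lay between 0.031 and 0.22. NOP15 (YNL110C), an RNA-binding protein, was lowest with RRP14 (YKL082C): NOP15 had -0.044, 0.034 and -0.079, and RRP14 0.043, -0.086 and -0.064.

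Member probes were positive inside the ORFs and negative just in front of them with Nup170. Within 250 bp upstream of the ORF start the median member probe was -0.11 labelled sir4∆, -0.21 labelled yku70∆ and -0.20 in wild type (47 probes of 44 genes). Between 500 and 1000 bp into the ORF it was 0.16, 0.12 and 0.20 (94 probes of 54 genes). Probes of other genes had -0.083, -0.11 and -0.15 in front of the start, and 0.017, 0.026 and 0.029 at 500 to 1000 bp. Farther upstream the members were not negative throughout. At 250 to 500 bp before the start their medians were 0.059 labelled sir4∆, -0.10 labelled yku70∆ and -0.085 in wild type (16 probes of 16 genes). At 500 to 1000 bp before it they were 0.064, 0.11 and 0.057 (11 probes of 6 genes), against -0.014, -0.034 and -0.038 for other genes. The first 250 bp of the ORF were intermediate for members, at 0.065, 0.029 and 0.016. From 1000 bp on, member medians lay between 0.055 and 0.18 in the Nup170 libraries, where those of other genes reached 0.044 at most. The exception was the library labelled sir4∆ beyond 5000 bp, at 0.0059 on 10 probes of 3 genes.

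**Figure D2:**
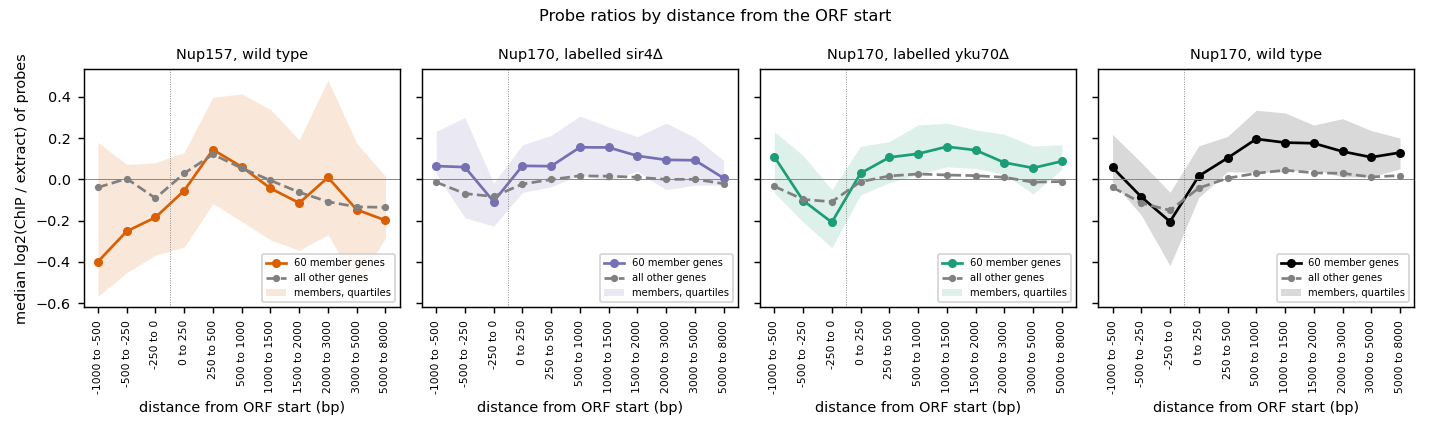
Median log2 ratio of probes (y axis) by distance from the ORF start in bp (x axis, bins of unequal width, dotted line at the start), for probes of the 60 genes (solid, with quartiles shaded) and of all other genes (dashed), 1 panel per library. In the Nup170 libraries the member line is below 0 just in front of the start and above the other genes inside the ORF; with Nup157 both lines peak at 250 to 500 bp.

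With each ORF cut into a first, a middle and a last part of equal length, member probes in wild type had medians of 0.096, 0.17 and 0.13 along the gene. In the library labelled sir4∆ these were 0.077, 0.12 and 0.11, and in the library labelled yku70∆ 0.098, 0.12 and 0.15. Ribosomal protein genes, by contrast, climbed in wild type over 0.45, 0.67 and 0.83. CBF5 showed the profile of a single high member: in wild type its upstream probes at 199 and 27 bp before the start had -0.64 and -0.15, and its 5 ORF probes had 0.27, 0.55, 0.51, 0.79 and 0.28.

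**Figure D3:**
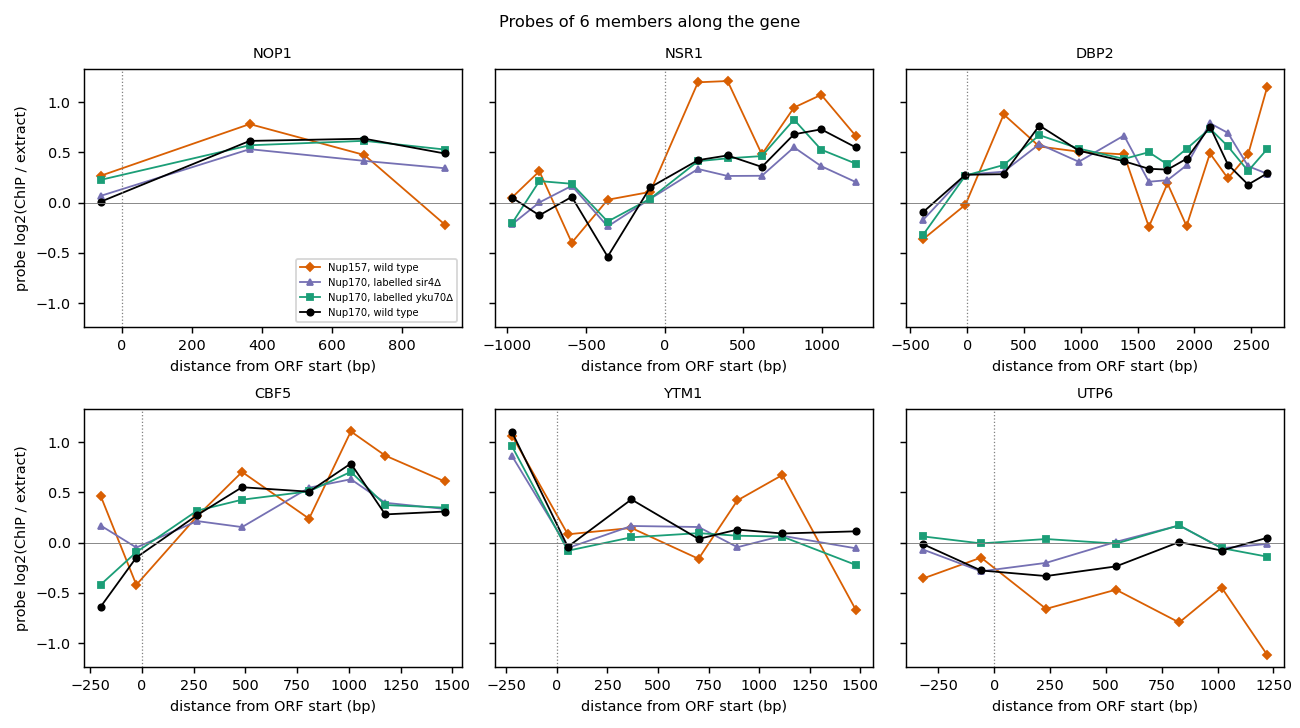
Log2 ratio of single probes (y axis) by distance from the ORF start in bp (x axis) for NOP1, NSR1, DBP2, CBF5, YTM1 and UTP6, with 1 line per library. NOP1, NSR1, DBP2 and CBF5 have higher mean values inside the ORF than upstream in all 4 libraries, YTM1 has its one high probe 222 bp upstream in all 4 libraries, and the 5 ORF probes of UTP6 are lowest with Nup157.

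Upstream values were mostly negative, as in the genome at large. Their medians over 50 members were -0.21 for Nup157, and with Nup170 -0.076 labelled sir4∆, -0.16 labelled yku70∆ and -0.18 in wild type. The medians of all genes were -0.071 for Nup157 and -0.077, -0.10 and -0.14 for those Nup170 libraries. For Nup157 35 of 50 were below 0 (56.2% of all genes). With Nup170 32 were below 0 labelled sir4∆ (66.9%), 39 labelled yku70∆ (71.7%) and 38 in wild type (73.8%), and 28 of 50 were in all 3 libraries (56.0% against 56.4% of all genes). These Nup170 shares are near the background and are no result about the members. In the library labelled sir4∆ the 2 hybridisations gave medians of -0.13 and 0.012, so even the sign of that median depended on the hybridisation. With the trend of the ratio on brightness removed, the Nup157 upstream median turned to 0.062, with 27 of 50 above 0 (52.4% of all genes).

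The gap between a gene's ORF and its own upstream value was wider for members than for all genes. Its median was 0.25 for Nup157, and with Nup170 0.19 labelled sir4∆, 0.29 labelled yku70∆ and 0.33 in wild type, against 0.14 for Nup157 and 0.093, 0.13 and 0.17 with Nup170 over all genes. The gap was positive in 38 of 50 members for Nup157 (62.4% of all genes). With Nup170 it was positive in 41 labelled sir4∆ (67.3%), 45 labelled yku70∆ (74.7%) and 45 in wild type (75.4%). It was positive in all 4 libraries in 34 members (68.0% against 39.8%). With the trend of the ratio on brightness removed, the Nup157 median was -0.073 and 22 of 50 were positive (49.5% of all genes). In wild type it fell to 0.18 when an upstream value needed at least 2 probes.

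**Figure D4:**
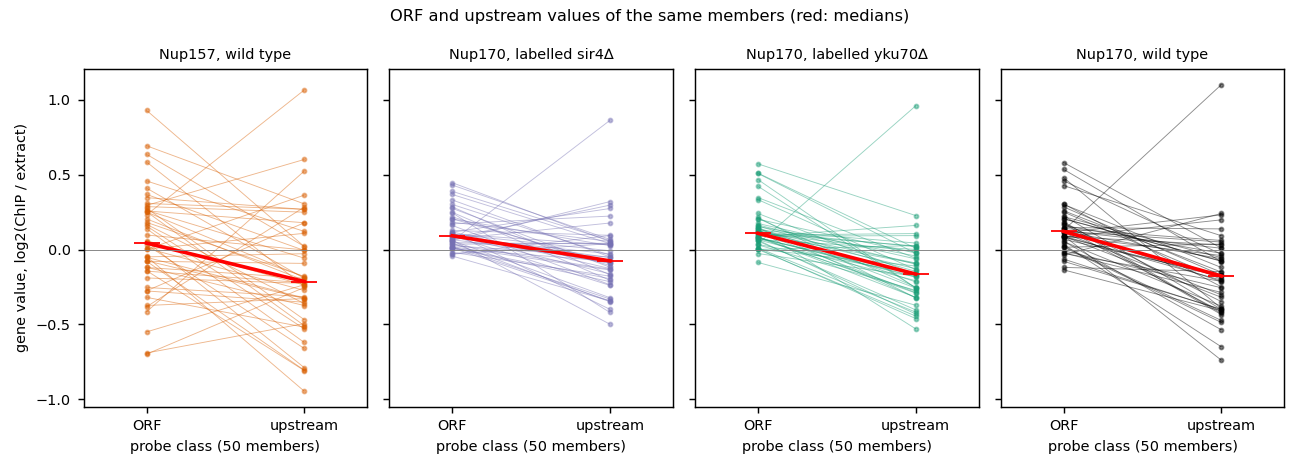
ORF and upstream values (y axis, log2 of ChIP over whole cell extract) of the 50 members with both, joined by a line per gene, 1 panel per library, with red bars at the medians. Most lines run down from ORF to upstream, and the line that climbs to about 1 in each panel is YTM1.

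YTM1 was the exception. Its single upstream probe (chromosome 15, 832558 to 832617, 222 bp before the start, annotated as a divergent promoter) had 1.06 for Nup157, and with Nup170 0.86 labelled sir4∆, 0.96 labelled yku70∆ and 1.10 in wild type. The 8 hybridisations ranged from 0.77 to 1.42, and the next highest upstream value of a member in any library was 0.60, of NOG2 for Nup157. The next gene upstream, per the RefSeq table, is the snoRNA gene SNR8. The ORF probe at 54 bp into YTM1 was at 0.082 for Nup157 and at -0.042 for Nup170 in wild type.

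In the mean of the 3 Nup170 libraries, the 4 members with a noncoding RNA gene next upstream were above 0 in front of the ORF. These were YTM1, UTP20, UTP22 and ERB1, with a median of 0.10 and a range of 0.029 to 0.97. For Nup157 UTP22 had -0.33 and ERB1 -0.22. The UTP22 probe nearest to the start, at 138 bp, was negative with Nup170 as well, at -0.16 labelled sir4∆, -0.23 labelled yku70∆ and -0.13 in wild type, and so was that of ERB1, at 185 bp, with -0.58, -0.34 and -0.46. Beside UTP20, UTP22 and ERB1 the noncoding gene is a tRNA gene. Of 43 members with another protein-coding gene upstream, 6 were above 0, with a median of -0.17. No share of all genes was computed for this mean. In single Nup170 libraries 66.9% to 73.8% of all genes were below 0 upstream, and 16.7% were above 0 in all 3, so values below 0 were the usual case. Of 3 members with a ribosomal protein gene upstream 1 was above 0, NOP12 (YOL041C), beside RPS15. NOP12 had 0.32 labelled sir4∆, 0.11 labelled yku70∆ and 0.24 in wild type, and its probe 490 bp upstream had 0.68, 0.49 and 0.82. UTP20, UTP22 and ERB1 have 5, 8 and 8 upstream probes, the farthest of them 6993 bp from the start, and 4 genes are too few for more than this description. The next highest was ENP2 (YGR145W), at 0.30, 0.16 and 0.20 on 1 probe, which turned to a mean of -0.25 under another background correction.

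At the low end of upstream values stood NOP2 (YNL061W), for an RNA methyltransferase of the large subunit, with -0.27 for Nup157, and -0.50 labelled sir4∆, -0.53 labelled yku70∆ and -0.47 in wild type with Nup170. HAS1 had -0.34, -0.44 and -0.65 in the same Nup170 libraries, and UTP13 had -0.40, -0.25 and -0.74. UTP8 (YGR128C) had -0.24, -0.46 and -0.54, and MAK5 had -0.33, -0.42 and -0.49. Each of these 5 rested on 1 probe within 250 bp of the start, and each was negative in all 3 libraries.

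Only 12 members had a downstream probe. Their medians were -0.079 for Nup157, and 0.30 labelled sir4∆, 0.21 labelled yku70∆ and 0.19 in wild type with Nup170, against -0.17, 0.13, 0.076 and 0.11 over all genes in that order. RRP15 (YPR143W), of the large subunit pathway, had the highest, 1.05 for Nup157, and 1.25 labelled sir4∆, 0.88 labelled yku70∆ and 0.58 in wild type with Nup170. That probe lies 944 bp from the start, and the next gene downstream is a tRNA gene. Its ORF value was between 0.053 and 0.10 in all 4 libraries.

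The authors' deposited table marked bound regions over several of these genes. In the authors' deposited table, 21 of 425 member ORF probes (4.94%) were marked as lying in a bound region for Nup157, against 5.73% of all ORF probes. For Nup170 the authors' deposited table marked 50 labelled sir4∆ (11.8% against 3.95%), 39 labelled yku70∆ (9.18% against 4.36%) and 40 in wild type (9.41% against 4.28%). NOP1, DBP2, NSR1, CBF5, NOG2, NOG1, NOP58 and NOP56 carried a mark in all 3 Nup170 libraries in the authors' deposited table. They are the 8 genes at 0.2 or more in all 3, and no share of all genes was computed for such marks. In wild type the authors' deposited table also marked DIP2, PWP2, RPF2, RRP5 and YTM1, and upstream it marked probes of NOP12 and YTM1. The marks come from the same ratios, so they are no second measurement.

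For Nup157 the members as a set were near the genome. Their median ORF value was 0.037 (interval -0.052 to 0.16), against 0.022 for all genes, 35 of 60 lay above 0 where 52.7% of all genes did, and 18 were at 0.2 or more where 32.3% were. Single genes ran further out on both sides than with Nup170, on arrays with a wider spread. The highest were NSR1 at 0.93, GAR1 at 0.69, CBF5 at 0.64, EBP2 at 0.58 and NOG1 at 0.46. The lowest were UTP6 at -0.70, NOP15 at -0.69, UTP9 at -0.55, TIF6 at -0.42 and UTP4 (YDR324C) at -0.38. Of the 6 UTP-A genes among the 60, 5 were below 0 and UTP5 (YDR398W), at 0.29, was above it, where 52.7% of all genes were above 0. Their median of -0.25 was the lowest of the 7 groups. It rests on 6 genes in the library with the widest spread, where the lower quartile of all genes was -0.20.

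Set against Nup170 in wild type, Nup157 was lower over most members. The median difference, Nup157 minus Nup170, was -0.13 (interval -0.17 to -0.012), with 39 of 60 below 0 where 49.6% of all genes were. It was -0.14, -0.098, -0.11 and -0.057 in the 4 pairings of their hybridisations. In all 4 pairings 26 members were below 0, where 30.5% of all genes were. With each library rescaled to one spread, 48 of 60 were below 0, where 51.9% of all genes were. Rescaling shrinks the Nup157 values towards 0 and leaves Nup170 in wild type as it was. There 50 of 60 members were above 0, so the count of 48 in part restates that one.

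UTP9 had the lowest difference. It had -0.55 for Nup157 and 0.26 for Nup170, a difference of -0.81 that lay between -0.95 and -0.66 in the 4 pairings. Of its 7 ORF probes, 6 were negative for Nup157 and all 7 were positive for Nup170. NOP15 had a difference of -0.61, UTP6 of -0.58, TIF6 of -0.56 and UTP22 (YGR090W) of -0.50, each negative in all 4 pairings.

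At the other end GAR1 had 0.69 for Nup157 and -0.023 for Nup170, a difference of 0.72 on 2 probes, with 0.51 to 0.92 in the pairings. NSR1 had a difference of 0.39, with 0.93 for Nup157 and 0.53 for Nup170. MAK16 (YAL025C), RRP14 and EBP2 had differences of 0.38, 0.32 and 0.30. With each library rescaled to one spread, NSR1 turned to -0.13 and EBP2 to -0.027. Rescaling shrinks every Nup157 value by one factor, so a gene that is positive in both libraries is bound to move down. The strains differ in LYS2 as well as in the tag, and with 1 library each, protein, strain and array cannot be told apart.

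**Figure D5:**
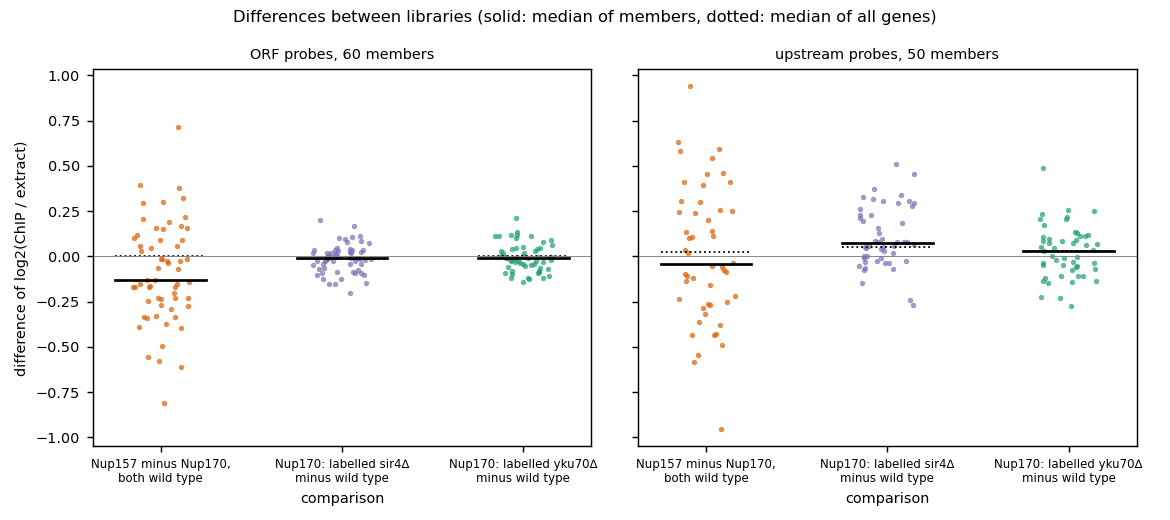
Differences of log2 ratios (y axis) between libraries, 1 point per member, for ORF probes (left, 60 members) and upstream probes (right, 50 members), with the median of members as a solid bar and of all genes as a dotted bar. The Nup157 differences range from -0.81 to 0.72 in ORFs, and those of the libraries labelled sir4∆ and yku70∆ stay between -0.20 and 0.21.

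The libraries labelled sir4∆ and yku70∆ differed little from Nup170 in wild type over the ORFs. The median difference was -0.0081 labelled sir4∆ minus wild type (interval -0.027 to 0.017) and -0.0077 labelled yku70∆ minus wild type (-0.032 to 0.0038). Below 0 were 35 of 60 members for the library labelled sir4∆, where 55.8% of all genes were, and 37 for the library labelled yku70∆, where 49.4% were. With each library rescaled to one spread, 27 were below 0 labelled sir4∆, against 55.7% of all genes, and 25 labelled yku70∆, against 46.0%. Both libraries had a narrower spread than wild type, so rescaling enlarged their values. Members above 0 there, 55 of 60 in each, were bound to move up, and these 2 counts are no further result. The pairings of hybridisations gave medians of -0.040 to 0.0070 labelled sir4∆ and of -0.050 to 0.0081 labelled yku70∆, so the sign of both medians depended on the hybridisation. The 2 differences share the wild-type library, and each is given on its own.

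Single members moved by 0.21 at most. Labelled sir4∆ minus wild type, NSR1 had -0.20, PWP1 (YLR196W) -0.15, NOP1 -0.15, PWP2 -0.14 and NOP7 -0.12 at the low end, and KRR1 0.20, ENP1 0.17, UTP7 (YER082C) 0.11, RRP14 0.11 and UTP6 0.10 at the high end. NSR1 was at 0.33 labelled sir4∆ and 0.53 in wild type, but with the second hybridisation of each alone the difference was 0.0069. Of these 10 genes, NSR1, NOP1, ENP1 and RRP14 changed sign in 1 of the 4 pairings.

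Labelled yku70∆ minus wild type, RPF2 (YKR081C) had -0.14, IMP4 -0.12, EBP2 -0.12, UTP9 -0.12 and RRP5 (YMR229C) -0.12, and ENP1 had 0.21, NOP12 0.13, UTP6 0.12, NOP2 0.12 and UTP13 0.11. ENP1 changed sign in 1 of the 4 pairings and the other 9 did in none. ENP1 and UTP6 stand at the high end of both lists, and both have negative values in the shared wild-type library (-0.14 and -0.12).

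In front of the ORFs the differences from Nup170 in wild type were again close to those of all genes. Nup157 minus Nup170 had a median of -0.044 with 24 of 50 above 0 (52.1% of all genes). Labelled sir4∆ minus wild type had 0.075 with 36 above 0 (63.3%), and labelled yku70∆ minus wild type had 0.032 with 27 above 0 (58.9%). Over all genes these medians were 0.027, 0.050 and 0.030. Removing the brightness trend moved the Nup157 difference to 0.15 with 32 of 50 above 0 (62.2% of all genes), and rescaling gave 34 (61.9%).

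Other genes of the same pathway, from a list of 84 further assembly factors of which 79 had an ORF value, had lower medians than the 60 with Nup170. For Nup157 their median was 0.11, with 56 above 0, where 52.7% of all genes were. Nup157 minus Nup170 in wild type had a median of 0.047 over the 79, with 31 below 0, where 49.6% of all genes were. The members had -0.13 with 39 of 60 below 0, so their negative difference between Nup157 and Nup170 did not extend to this list. With Nup170 the medians were 0.066 labelled sir4∆, 0.077 labelled yku70∆ and 0.075 in wild type. In these libraries 58, 65 and 59 of the 79 were above 0, where 49.5%, 52.7% and 51.4% of all genes were. At 0.2 or more were 3, 6 and 8 of the 79, where 7.6%, 10.2% and 11.6% of all genes were, so this list held no excess of high values. Of 8 genes listed for RNA polymerase I, which transcribes the ribosomal RNA, 6 had an ORF value, with medians of -0.034 for Nup157, and 0.082, 0.13 and 0.17 with Nup170.

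Cytosolic ribosomal protein genes, the products of which are the parts that these factors assemble, had much higher values. Over 102 genes the medians were 0.36 for Nup157, and 0.44 labelled sir4∆, 0.54 labelled yku70∆ and 0.61 in wild type with Nup170. In wild type 15 of the 60 assembly factor genes were at 0.2 or more, against 100 of the 102 ribosomal protein genes. In front of their ORFs the assembly factor genes had a median of -0.18 in wild type, and the ribosomal protein genes 0.46. Labelled sir4∆ minus wild type, the median ORF difference was -0.0081 for the assembly factor genes with 35 of 60 below 0. For the ribosomal protein genes it was -0.19 with 94 of 102 below 0, where 55.8% of all genes were. The library labelled sir4∆ had a narrower spread than wild type (lower-side SD 0.19 against 0.22), which lowers high values most. Its part in the difference of the ribosomal protein genes was not tested. The brightness of the extract channel was similar for member ORF probes and for those of all other genes, at 39994 and 39831 for Nup157, and with Nup170 at 31252 and 31506 labelled sir4∆, 30946 and 31474 labelled yku70∆, and 28295 and 28993 in wild type. Member upstream probes were dimmer than those of other genes, at 35721 and 37182 for Nup157 and at 26443 and 28201 for Nup170 in wild type. Member downstream probes were dimmer still, at 20272 and 29730 for Nup157 and at 15006 and 21427 for Nup170 in wild type, and the part of brightness in the upstream and downstream values was not tested beyond removing its trend.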

How the data were processed

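ChIP (Cy5) and whole cell extract (Cy3) DNA of 4 strains were hybridised to Agilent tiling arrays, in 2 hybridisations per library. Per the labels' protocols, cells grew to an OD600 of 1, formaldehyde at 1% was applied for 1 h, chromatin was sheared to about 400 bp, and a Myc antibody was used to recover the tagged protein. Agilent Feature Extraction is named in the submitters' processing notes. The deposited intensity columns hold spot foreground, background and signals normalised by the authors. The authors' combined log2 ratio, also in the series matrix, served as an alternative. Deposited 0 or 1 marks (unit other) give excluded spots and, by the authors, bound regions. No genome build is named in the labels or headers, so positions are those of the files. Array number and the 2 hybridisations limit the precision.

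From the normalised signals, log2(ChIP / extract) was centred on the median of nuclear probes in each hybridisation and averaged. No probe of the 60 genes was excluded. ORF, upstream and downstream probes were kept apart by the files' annotation, with at least 2 ORF probes or 1 other probe. Upstream probes can lie up to 6993 bp away. Differences used probes measured in both libraries. All 60 genes were matched in the RefSeq table for names, gene order and neighbours. Medians carry a 95% order-statistic interval over genes. Calculations used Python 3.11.15, numpy 2.4.6, pandas 2.3.3, scipy 1.17.1 and statsmodels 0.14.6, and normexp correction (offset 50) used limma 3.58.1 in R 4.3.3. Scripts were tested on simulated data.

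The members, lists, threshold of 0.2 and rule for named genes were chosen with earlier results of these data known. The rule gives values for the 8 highest and 8 lowest members by the mean Nup170 ORF value, the 5 highest and lowest by Nup157, by upstream value and by each ORF difference, and lets any other member be named by role. Planned promoter motif counts were not run, because no promoter sequences were used here. The files' secondary annotation was empty, so the alternative that leaves out probes naming another gene was run by leaving out divergent promoter probes. With 1 library per group no p-value was computed.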

Additional observations from a re-analysis of the deposited data

How the results depend on the processing

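Of 231 values of the medians over the 60 genes under the alternatives, 215 stayed within the 95% interval of the reported median. Another 14 moved outside it, and 2 more changed sign where the reported interval excludes 0. Among the 14, some medians whose interval holds 0 changed sign too, as the upstream median labelled sir4∆ did at 0.031. Medians whose interval holds 0 changed sign more readily: the upstream difference labelled yku70∆ minus wild type kept its sign in 9 of 13 alternatives, and the ORF differences in 9 of 12 labelled sir4∆ and 10 of 12 labelled yku70∆. With normexp background correction the ORF medians were 0.19 labelled sir4∆, 0.20 labelled yku70∆ and 0.20 in wild type for Nup170, the upstream median labelled sir4∆ was -0.19, and the ORF minus upstream medians were 0.41, 0.43 and 0.51. That correction also moved the ORF median of all genes to 0.13 for Nup157 and to 0.087, 0.076 and 0.073 for these Nup170 libraries, with 0.13 for the 60 genes with Nup157. It turned ENP2 upstream to -0.25. With the brightness trend removed, the Nup157 upstream median was 0.062, its difference from Nup170 in wild type 0.15, and its ORF minus upstream median -0.073. With at least 2 upstream probes, the upstream medians were 0.031 labelled sir4∆ and -0.062 labelled yku70∆, and the ORF minus upstream median in wild type was 0.18. Rescaling each library to one spread gave 0.023 for the yku70∆-labelled minus wild-type ORF median, -0.13 for NSR1 and -0.027 for EBP2 in Nup157 minus Nup170. With single hybridisations, the ORF difference ranged from -0.040 to 0.0054 labelled sir4∆ and from -0.031 to 0.0040 labelled yku70∆, and NSR1 labelled sir4∆ minus wild type ranged from -0.41 to 0.0069. Rescaling moves positive values by its own arithmetic, and the cause of the other shifts was not tested. Limiting upstream probes to 500 bp, leaving out ORF probes within 250 bp of the start, YTM1 or the 8 highest genes, all chosen after seeing the data, changed no direction of a median over the genes. No paired analysis was possible because each group is 1 library. Near-blank signal touched 2 to 4 member probes per library.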
